A study of Mus musculus with 8 samples.

Results

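The genes described here were the cadherins and protocadherins, taken as every gene of the deposited feature lists whose symbol was Cdh with a number or began with Pcdh. There were 92 of them among 22056 features, with 91 different symbols, since Pcdha11 stood on 2 gene identifiers. By structure and role they fell into 5 classical type I cadherins, 13 classical type II cadherins, 5 other cadherins, 4 delta-1 protocadherins, 5 delta-2 protocadherins, 3 other non-clustered protocadherins, and the clustered protocadherins, with 14 alpha, 22 beta and 21 gamma genes. All 92 identifiers had a position on GENCODE M21 (assembly GRCm38).

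The samples were tumours grown in mice from N2N1G, a mouse small cell lung cancer cell line, read with 10x Genomics 3' single-cell RNA sequencing. There were 2 brain tumours and 3 flank tumours under the skin (subcutaneous), both made by injecting the cells on the spot, and 3 liver tumours made by injection into the tail vein. Each graft was started with 1000000 cells and taken 3 weeks later, and viable cells were selected by flow sorting. All 3 groups share the 1 line, and the genotype, strain and age of the host mice were not given in the sources used here. The labels call the samples replicates of a site and do not say that they came from separate animals, so the p-values measure only the spread between these samples.

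Cadherins are membrane proteins that hold neighbouring cells together through calcium-dependent contacts of their extracellular repeats. Type I and type II cadherins bind like to like outside the cell and reach the actin cytoskeleton through catenins inside it. Protocadherins are most varied in the nervous system, where the clustered ones give single neurons different surface codes and the delta ones act in cell sorting and axon growth. E-cadherin (Cdh1) marks epithelial cells and N-cadherin (Cdh2) neural and mesenchymal cells, and a lower E-cadherin level is a usual sign of epithelial-mesenchymal transition.

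A cell was called a tumour cell where eGFP and Mycl together made up at least 0.2% of its UMIs (unique molecular identifiers, each standing for 1 captured RNA molecule). Of 36797 cells kept, 34719 were tumour cells and 2078 lay under that share, of which 430 lay between 0.1% and 0.2%. At least 1 eGFP UMI was found in 99.36% to 99.83% of the tumour cells of each sample. Tumour cell UMIs were summed per sample, giving 21689091 to 62047017 UMIs, and levels are UMIs per 1000000 UMIs of such a sum (CPM). Since 1 molecule gives 1 tag at its 3' end, these levels are not divided by gene length. Cells under the share were 28.4% and 7.96% of the cells kept from the brain tumours, 1.37% to 3.86% from liver and 1.05% to 6.17% from subcutaneous tumours. They were not all host cells: 312 lay in clusters with tumour markers and 204 in a cluster with 5 of 9 tumour markers led by haemoglobin genes, and an eGFP UMI was found in 18.2% to 81.5% of them per sample. Subcutaneous replicate 1 stood apart from the other subcutaneous tumours and lay near brain for several genes, so results that rest on it are given with and without it. Of 37556 distinct barcodes, 882 occurred in more than 1 library, with 20 to 56 shared by a pair. No doublet caller was run. A cluster of 138 tumour cells carried all 9 macrophage markers, and another of 99 cells was led by stromal and vascular genes such as Sparc, Dcn and Cldn5.

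The family as a whole took a like share of tumour cell RNA at every site, while single members differed. The 92 members summed to 320.5 and 297.0 CPM in brain, 325, 313 and 319 in liver, and 311, 333 and 342 in subcutaneous tumours. Cdh2 alone made up 25.6% of the family's UMIs, Cdh2 with Pcdh10 and Pcdh17 made up 52.25%, and the 10 most abundant members 82.05%. Only 7 members had a mean of at least 10 CPM, 23 had 1 to 10, and 62 had less than 1. Cdh26 and Pcdh20 had no UMI in any tumour cell. A filter on low counts left 49 of the 92 for testing among 13931 genes.

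In brain against liver, 6 of the 49 tested members (12.2%) passed an adjusted p of 0.05 in edgeR's quasi-likelihood test, 4 higher and 2 lower in brain, while 21.8% of all tested genes did (13.2% higher and 8.56% lower). In brain against subcutaneous, 3 passed (6.12%), 1 higher and 2 lower, against 15.1% of all genes (8.94% higher and 6.13% lower). In liver against subcutaneous, 1 passed, higher in liver, against 2.83% of all genes (0.933% higher and 1.9% lower). In every comparison the share of members called was below that of all genes. The counts depended on single samples: without subcutaneous replicate 1 they were 9, 9 and 2, and without brain replicate 2 they were 2, 0 and 0. Brain against liver also fell to 3 without brain replicate 1, liver replicate 1 or liver replicate 2. Brain against subcutaneous fell to 1 without brain replicate 1, subcutaneous replicate 2 or subcutaneous replicate 3. Counts over all genes moved with single samples too. Without subcutaneous replicate 1 they were 4557, 4754 and 1024 of 13856, beside 3032, 2099 and 394 of 13931 with it. Fewer genes passed in each comparison without brain replicate 2. The median log2 fold change of the tested members was 0.11, 0.18 and 0.09 in these 3 comparisons, beside medians within 0.01 of 0 over all genes. Regardless of sign, the medians were 0.33, 0.40 and 0.23 for the members and 0.28, 0.26 and 0.17 for all genes. The lower share of calls thus did not go with smaller fold changes. The same libraries enter several of these comparisons, so the comparisons are not independent. Samples of the 2 sites did not overlap for 21, 19 and 8 members, against 53.2%, 46.8% and 27.7% of all genes.

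**Figure D1:**
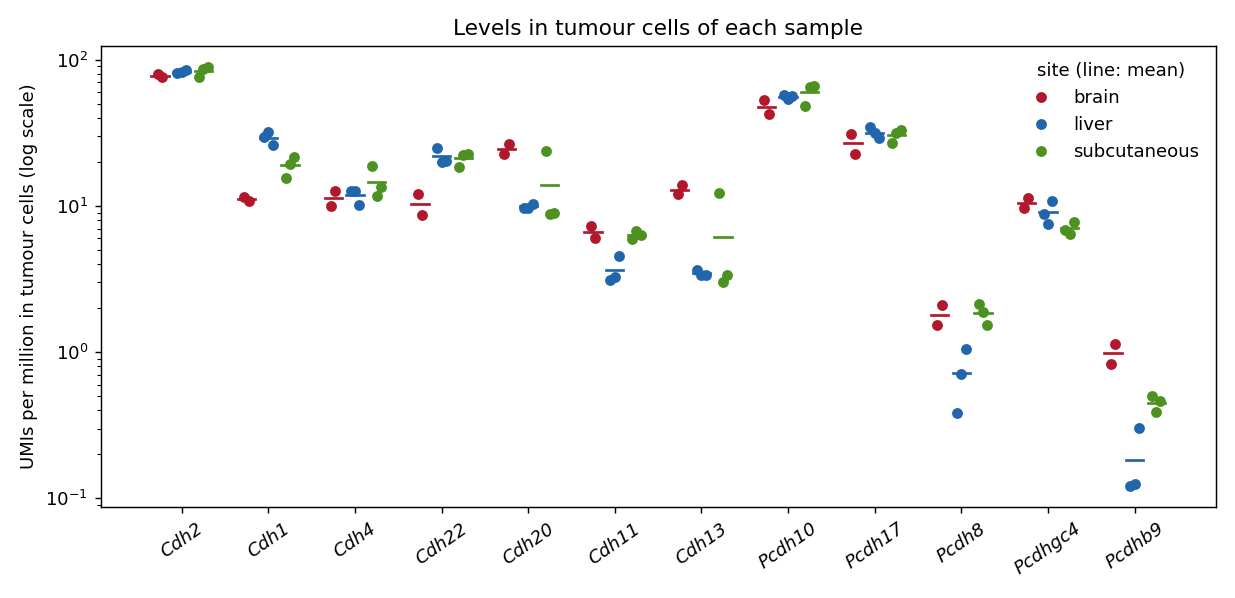
Levels in tumour cells of each sample for 12 members (CPM, log scale). Each point is 1 sample and each line the mean of a site. The liver tumours stand highest for Cdh1, at 26.2 to 32.03, and subcutaneous replicate 1 sits beside the brain tumours for Cdh13 and Cdh20.

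The type I cadherins held the most abundant member and the one with the clearest difference between sites. Cdh2 (ENSMUSG00000024304), N-cadherin, was at 79.3 and 75.9 CPM in brain, 80.7, 82.5 and 84.9 in liver, and 75.9, 86.7 and 89.3 in subcutaneous tumours. Brain lay at the low end and the sites overlapped between brain and subcutaneous. The log2 difference of brain from liver was -0.21 (95% interval -0.45 to 0.04, adjusted p = 0.153), that of brain from subcutaneous -0.12 (-0.36 to 0.13), and that of liver from subcutaneous 0.09 (-0.13 to 0.31). No site differed by the test, and the intervals leave out changes of Cdh2 as large as those of Cdh1 described next.

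Cdh1 (ENSMUSG00000000303), E-cadherin, on GRCm38 chromosome 8 from 106603351 to 106670246, was at 11.5 and 10.7 CPM in brain. It was at 29.5, 32.03 and 26.2 in liver and at 15.6, 19.4 and 21.8 in subcutaneous tumours. The 3 sites did not overlap, with brain lowest and liver highest. Cdh1 was 2.86-fold lower in brain than in liver (log2 -1.51, SE 0.17, adjusted p = 0.00104), 1.71-fold lower in brain than in subcutaneous tumours (log2 -0.77, SE 0.16, adjusted p = 0.0175), and 1.67-fold higher in liver than in subcutaneous tumours (log2 0.74, SE 0.14, adjusted p = 0.0304). The difference of brain from liver passed with each sample left out in turn, with an adjusted p of at most 0.0169. Leaving out a sample ended the call of brain against subcutaneous in 4 of 8 cases (up to 0.118, without brain replicate 2) and that of liver against subcutaneous in 6 of 8 (up to 0.157, without liver replicate 2).

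The share of cells with a Cdh1 UMI gave the same order of site means. With each tumour cell thinned to 3000 UMIs, leaving out 48 to 180 shallower cells per sample, a Cdh1 UMI was found in 3.58% and 2.29% of brain tumour cells. It was found in 8.02%, 8.77% and 7.34% of liver and 3.54%, 5.34% and 6.08% of subcutaneous tumour cells. The highest brain sample and the lowest subcutaneous one, replicate 1, lay side by side. Unthinned, the shares were 8.45% to 8.56% in brain, 21.04% to 27.7% in liver and 12.7% to 19.5% in subcutaneous tumours. In macrophage-like host cells, which should lack Cdh1, 0.906% held a Cdh1 UMI unthinned, at median depths of 6548 and 8312 UMIs in their 2 clusters, beside 7972 to 10540 in the tumour cells of a sample. A Cdh2 UMI was found in 18.7% to 23.8% of the thinned cells of every sample. Cdh4, R-cadherin, was at 9.96 and 12.7 CPM in brain, 12.6, 12.7 and 10.2 in liver, and 18.9, 11.7 and 13.4 in subcutaneous tumours, where replicate 1 was highest. It passed no test. The remaining type I genes, Cdh3 and Cdh15, were under 1 CPM.

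Among the type II cadherins, Cdh22 was lower in brain than at both other sites. Cdh20 had the opposite sign against liver and did not pass edgeR's test over all samples, though it passed in some alternatives given below. Both genes are known from the developing nervous system. Of the 12 members named in the figures, 5 had an entry in the RefSeq promoter table (250 bases before to 50 after the start). The windows of the type II pair are shown because the members have the largest brain-to-liver contrast at more than 10 CPM after Cdh1, with CG dinucleotides in capitals. They lie at chr2:165234688-165234987 (minus strand) and chr1:104768270-104768569 (plus strand) on GRCm38.p6, and are printed 5′ to 3′ on the strand of the gene.
Cdh22: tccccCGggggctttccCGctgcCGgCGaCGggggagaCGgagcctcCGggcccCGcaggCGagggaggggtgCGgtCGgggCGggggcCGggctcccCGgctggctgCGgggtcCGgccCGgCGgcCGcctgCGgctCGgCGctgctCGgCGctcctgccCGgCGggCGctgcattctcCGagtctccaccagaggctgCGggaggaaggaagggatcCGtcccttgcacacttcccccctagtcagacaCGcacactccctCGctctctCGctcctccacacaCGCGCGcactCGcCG
Cdh20: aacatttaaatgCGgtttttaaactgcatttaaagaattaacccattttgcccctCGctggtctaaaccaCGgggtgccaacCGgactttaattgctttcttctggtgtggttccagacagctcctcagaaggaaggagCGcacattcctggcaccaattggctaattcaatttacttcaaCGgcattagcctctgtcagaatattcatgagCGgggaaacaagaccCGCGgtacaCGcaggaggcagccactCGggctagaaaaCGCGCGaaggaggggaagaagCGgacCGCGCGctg
The Cdh22 window held 38 CG dinucleotides, a number that 4.96% of 32817 promoter windows of this length reached, and the Cdh20 window held 18, which 29.7% reached. The median window held 7. CAGGTG, an E-box bound by Snail and Zeb repressors, was searched on both strands (as CAGGTG and CACCTG). It was in neither window, while 20.2% of all windows held it.

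Cdh22 (ENSMUSG00000053166, chromosome 2 from 165111507 to 165234853) was at 12.03 and 8.73 CPM in brain, 25.1, 20.03 and 20.3 in liver, and 18.3, 22.4 and 22.7 in subcutaneous tumours. Both brain tumours lay below all 6 others, and liver and subcutaneous overlapped. Cdh22 was 2.29-fold lower in brain than in liver (log2 -1.20, SE 0.18, adjusted p = 0.00333) and 2.05-fold lower than in subcutaneous tumours (log2 -1.04, SE 0.18, adjusted p = 0.00896). The first call held with each sample left out (adjusted p at most 0.0357), and the second was lost without brain replicate 2 (0.0705). Liver and subcutaneous differed by 0.16 on the log2 scale (adjusted p = 0.652).

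Cdh20 (ENSMUSG00000050840, chromosome 1 from 104768529 to 104995481) was at 22.6 and 26.7 CPM in brain, 9.74, 9.72 and 10.4 in liver, and 23.8, 8.82 and 8.94 in subcutaneous tumours. Subcutaneous replicate 1 was at the level of brain and the others were at that of liver. The log2 difference of brain from liver was 1.20 (SE 0.39, adjusted p = 0.0609) and that of brain from subcutaneous 0.84 (SE 0.39, adjusted p = 0.182), so neither passed. Without subcutaneous replicate 1 these were 1.20 (adjusted p = 4.1e-05) and 1.48 (adjusted p = 3.3e-05). For brain against liver the call also depended on the method. DESeq2 over all samples gave 1.198 (adjusted p = 0.00812). Fitting only the brain and liver samples in edgeR gave 1.2 (adjusted p = 0.00014).

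Cdh11, a cadherin of mesenchymal and bone-forming cells on chromosome 8 from 102632095 to 102785642, was at 7.28 and 6.07 in brain, 3.12, 3.26 and 4.55 in liver, and 5.92, 6.75 and 6.32 in subcutaneous tumours (CPM). Liver was lowest, and brain and subcutaneous overlapped. Cdh11 was 1.69-fold higher in brain than in liver (log2 0.76, SE 0.19, adjusted p = 0.0203), a call lost in 4 of 8 cases with a sample left out. Liver lay below subcutaneous by 0.69 on the log2 scale (adjusted p = 0.0661, and 0.0337 without subcutaneous replicate 1). Cdh24 was at 9.02 to 11.1 CPM in all samples. The type II group had 6 of 13 members tested, and 2 of them passed in brain against liver.

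T-cadherin, Cdh13, differs from the classical cadherins in having a lipid anchor in place of a transmembrane and intracellular part. It lies on chromosome 8 from 118283733 to 119324921. Its levels were 11.99 and 13.9 CPM in brain, 3.64, 3.39 and 3.39 in liver, and 12.2, 3.00 and 3.35 in subcutaneous tumours. As for Cdh20, subcutaneous replicate 1 lay with brain, while the others lay with liver. Cdh13 was 3.44-fold higher in brain than in liver (log2 1.78, SE 0.54, adjusted p = 0.0499), a call at the threshold that was lost in 5 of 8 cases with a sample left out. The log2 difference of brain from subcutaneous was 1.08 (adjusted p = 0.211), and 2.03 (adjusted p = 1.7e-05) without subcutaneous replicate 1. 

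**Figure D2:**
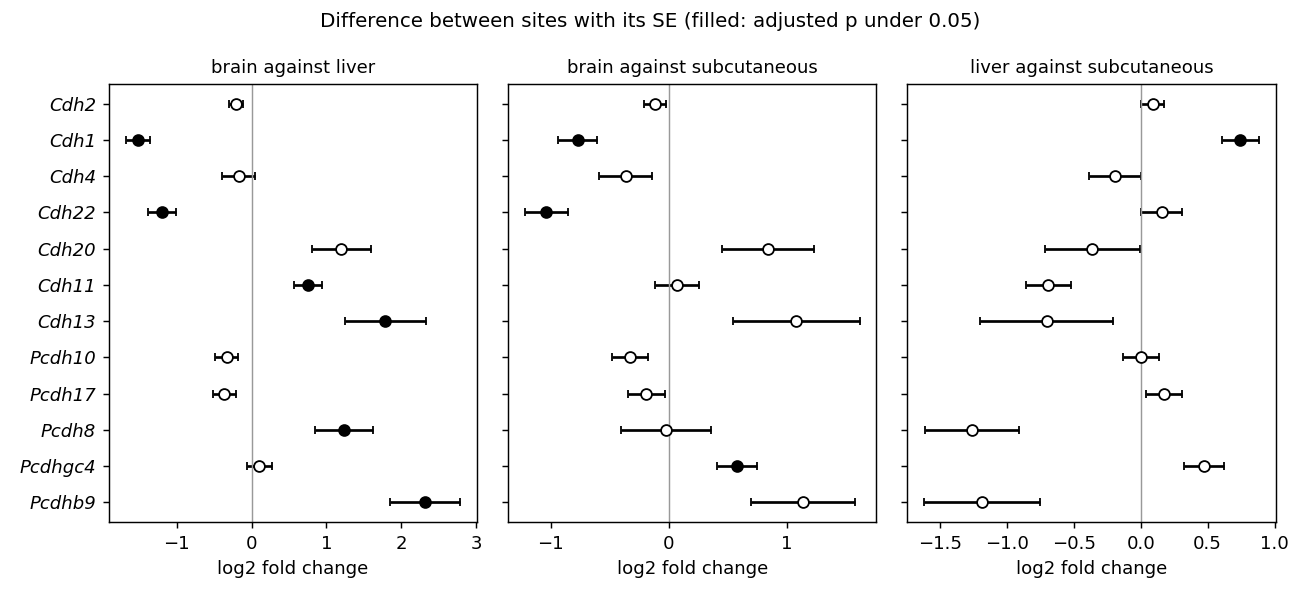
Log2 fold change between sites for the same 12 members, with bars of 1 SE. Filled points passed an adjusted p of 0.05. Cdh1 and Cdh22 are lower in brain than at either other site, and Cdh13 and Cdh20 have wide bars.

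The delta-2 protocadherins held the most abundant members after Cdh2. Pcdh10, which organises actin and axon growth, was at 52.8 and 42.8 CPM in brain, 56.9, 53.7 and 56.1 in liver, and 48.2, 65.4 and 66.0 in subcutaneous tumours. Pcdh17, a protocadherin of synapses and axon bundles, was at 30.9 and 22.7, at 34.7, 31.3 and 29.2, and at 26.9, 31.4 and 33.1 in the same order. Both were lowest in brain replicate 2 and next lowest in subcutaneous replicate 1. Neither passed edgeR's test over all samples and tumour cells. The log2 difference of brain from liver was -0.33 for Pcdh10 (adjusted p = 0.148) and -0.36 for Pcdh17 (adjusted p = 0.129). Without subcutaneous replicate 1, Pcdh10 passed in brain against liver (-0.33, adjusted p = 0.0335) and in brain against subcutaneous (-0.46, adjusted p = 0.0111). With tumour cells holding 2 or more host marker UMIs left out, both passed in brain against subcutaneous. Their log2 differences were then -0.84 for Pcdh10 (adjusted p = 0.03965) and -1.025 for Pcdh17 (adjusted p = 0.0344). That filter kept only 137 of 2418 and 268 of 4060 brain tumour cells, and 475 to 924 cells of the subcutaneous samples. Its lists include 7 neuron markers, which summed to 224.4 to 262.5 CPM in the tumour cells of every sample. The cells kept are thus a small and selected part of the tumour cells.

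Pcdh8, a protocadherin that neuronal activity induces, was at 1.52 and 2.09 CPM in brain, 0.38, 0.71 and 1.06 in liver, and 2.13, 1.89 and 1.52 in subcutaneous tumours. Liver was lowest. It was higher in brain than in liver (log2 1.24, SE 0.39, adjusted p = 0.0498), at the threshold, and the call was lost in 6 of 8 cases with a sample left out. Pcdh19 was at 5.89 to 11.8 CPM over all samples and Pcdh18 at 0.95 to 1.92. The 4 delta-1 members, Pcdh1, Pcdh7, Pcdh9 and Pcdh11x, had means of 1.28 to 3.34 and passed no test.

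The clustered protocadherins stood on chromosome 18 and were low. The 22 beta genes summed to 20.2 to 31.6 CPM per sample, the 21 gamma genes to 8.85 to 14.8, and the 14 alpha genes to 0.88 to 1.89. All 14 alpha and all 21 gamma genes end within 5 bases of a 3' end they share, so that 3' tags from the shared last exons cannot be given to 1 gene, and their single values are uncertain. Beta genes are single-exon genes, and 20 of 22 passed the filter, with Pcdhb5 (3.81 to 7.77 CPM) and Pcdhb6 (2.71 to 5.76) most abundant.

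Pcdhgc4, the gamma member with the highest level, is known for neuronal survival. It was at 9.68 and 11.3 CPM in brain, 8.77, 7.46 and 10.9 in liver, and 6.88, 6.41 and 7.78 in subcutaneous tumours. It was higher in brain than in subcutaneous tumours (log2 0.58, SE 0.17, adjusted p = 0.0497), a call lost in 6 of 8 cases. Pcdhb9 was named after its values were seen, since it lies under 1 CPM: it had 18 and 44 UMIs in brain, 6, 6 and 14 in liver, and 21, 24 and 24 in subcutaneous tumours. Its mean was 0.98 CPM in brain and 0.18 in liver, a log2 difference of 2.32 (SE 0.47, adjusted p = 0.00973) that was not past the threshold without brain replicate 2 (0.0780). The 57 clustered genes had 28 members tested in all, and 1 passed in each brain comparison.

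Per cell, few members were seen at once. In cells thinned to 3000 UMIs, a tumour cell held UMIs of 0.81 to 0.94 members on average, 55.6% to 62.96% of cells held at least 1 member, and 4.74% to 6.50% held 3 or more. Subcutaneous replicate 3 had the highest and brain replicate 2 the lowest values of all 3.

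The tumour cells were then clustered without the 92 members, to describe which kinds of tumour cells held them. This gave 20 clusters, 18 of them with at least 200 cells. Cdh1 ranged from 1.22 CPM (3 UMIs, cluster 2, 353 cells) to 74.5 (43 UMIs, cluster 12). Cdh20 ranged from 2.00 to 38.3 and Cdh13 from 0 to 24.3, while Cdh2 ranged from 47.5 to 254.7. Cdh2 was thus found in every cluster, and Cdh1, Cdh13 and Cdh20 split them.

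Of the 5 clusters with Cdh1 under 5 CPM, clusters 1, 2, 9 and 15 had high Cdh20 and Cdh13. They were led by genes such as Bst2, Des and En1 (cluster 1), Mfap2, Des and Fst (cluster 2), Tm4sf1, En1 and Hoxd11 (cluster 9), and Islr2 and Tfap2a (cluster 15). Cdh1 was at 1.55, 1.22, 4.48 and 2.18 CPM there, Cdh20 at 34.7, 32.6, 32.03 and 37.5, and Cdh13 at 14.9, 19.9, 24.3 and 13.5. Clusters 5, 13 and 19, led by Tfap2a or Cldn7, a tight junction gene, held both kinds, with Cdh1 at 19.3, 31.8 and 36.8, Cdh20 at 38.3, 28.6 and 25.4, and Cdh13 at 19.5, 12.3 and 21.2. High Cdh20 thus stood with Cdh1 in some clusters and without it in others.

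Clusters 6, 7, 14 and 18, led by sterol synthesis genes, late cell cycle genes, hypoxia and stress genes, and Sfrp5 with Calb1, had Cdh1 at 25.2, 30.7, 24.3 and 29.8 and Cdh13 at 1.33, 2.18, 2.13 and 1.34 CPM. Cluster 11, led by the neuronal genes Isl1, Htr3a and Chgb, had the highest Cdh11 of all clusters (26.7) with Cdh2 at 118.9 and Cdh1 at 3.4. Cluster 3, led by Txnip and Hspa1a, had the highest Pcdh8 (12.3). Cluster 12 had the highest Cdh2 and Cdh1, but only 214 cells, led by haemoglobin genes, whose median UMI count was 0.25 times that of their samples. Over the 18 clusters Cdh13 and Cdh20 had Pearson's r of 0.85 (Spearman's rho 0.76), Cdh1 and Cdh22 0.72 (0.68), and Cdh1 and Cdh20 -0.23 (-0.33). These are descriptions, since the clusters share libraries and differ in depth.

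**Figure D3:**
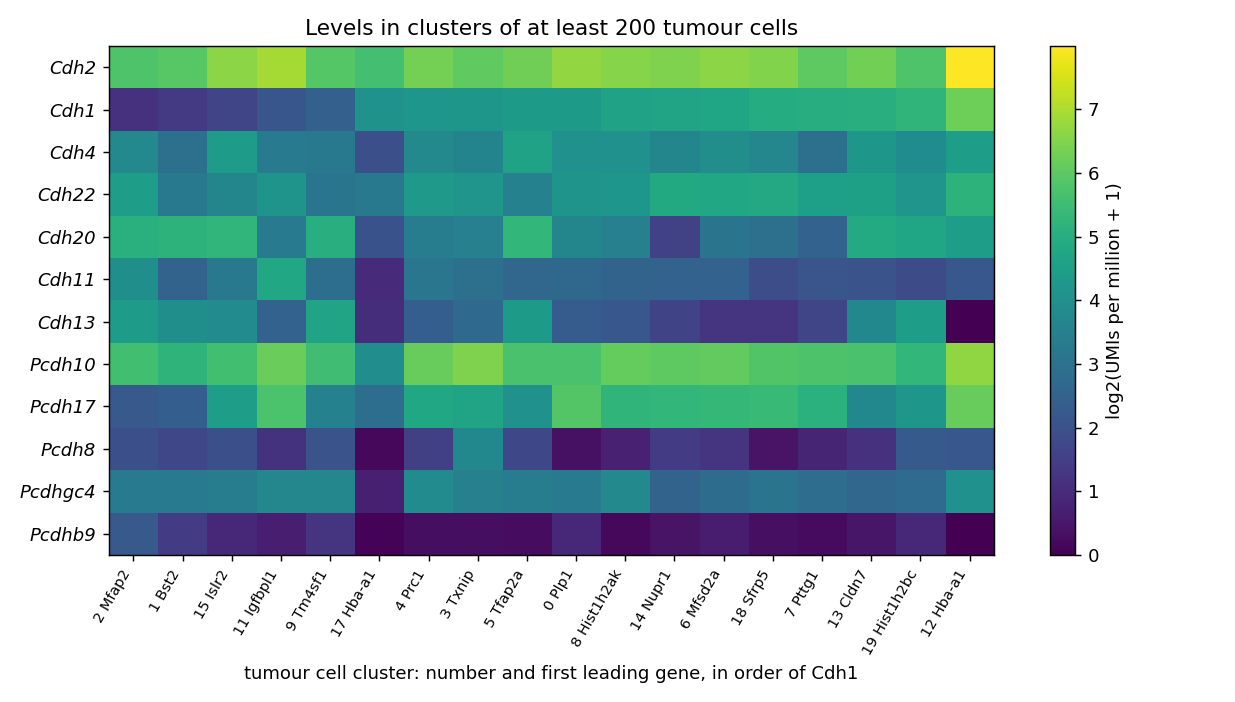
Levels of 12 members in the 18 tumour cell clusters of at least 200 cells, as log2(CPM + 1), with clusters in order of Cdh1. The leftmost clusters, low in Cdh1, include 1, 2, 9 and 15 with high Cdh20 and Cdh13, and cluster 11 with high Cdh11.

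Clusters 1, 2, 9 and 15 together held 36.1% and 51.7% of the tumour cells of the brain samples, 3.18%, 1.65% and 2.63% in liver, and 28.0%, 4.21% and 4.97% in subcutaneous tumours. Subcutaneous replicate 1 was again the one sample near brain. These 4 clusters were picked by their levels of the genes compared, so their shares are a description. To compare sites with the same mix of clusters, levels were averaged with equal weight over the 6 clusters that had at least 30 cells in every sample (4, 5, 7, 8, 13 and 17). None of the clusters low in Cdh1 was among them.

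With equal weight, Cdh1 was at 17.8 and 17.7 CPM in brain, 28.8, 33.1 and 25.4 in liver, and 18.2, 19.1 and 21.5 in subcutaneous tumours. Liver stood above all other samples, and the gap between brain and subcutaneous narrowed to 0.43 between the nearest samples. The mean of liver was above those of brain and subcutaneous in each of the 6 clusters, for example 24.95 against 11.9 and 15.2 in cluster 4, led by mitosis genes. Cdh22 with equal weight was at 11.9 and 8.97 in brain, 19.1, 14.5 and 16.7 in liver, and 17.7, 17.5 and 17.1 in subcutaneous tumours, and brain was lowest. In means, brain against liver went from 0.38 to 0.61 for Cdh1 and from 0.476 to 0.62 for Cdh22, so that these differences narrowed as well.

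Cdh20 and Cdh13 came closer between sites. With equal weight Cdh20 was at 18.1 and 17.2 CPM in brain, 13.4, 14.3 and 13.9 in liver, and 18.8, 15.9 and 14.7 in subcutaneous tumours. Cdh13 was at 6.98 and 9.39, at 6.23, 5.85 and 5.46, and at 9.53, 5.72 and 6.04. Brain against liver was then 1.27-fold for Cdh20 and 1.40-fold for Cdh13 in means, from 2.48-fold and 3.73-fold over all tumour cells. Cdh11 with equal weight was highest in brain, at 7.57 and 5.68 against 2.82 to 4.63 elsewhere, while over all tumour cells brain and subcutaneous overlapped.

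**Figure D4:**
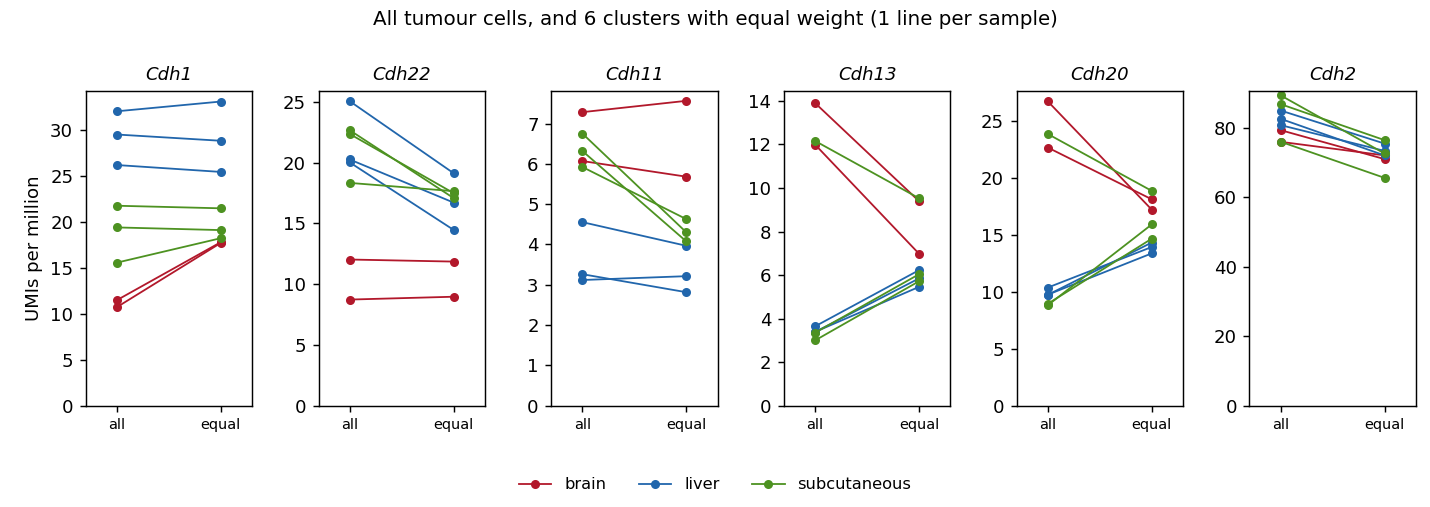
Levels over all tumour cells and with equal weight over 6 clusters, 1 line per sample (CPM, axes from 0). The sites come closer for all 4 of Cdh1, Cdh22, Cdh13 and Cdh20, and liver samples for Cdh1 and brain samples for Cdh22 still do not overlap those of the other sites.

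Transcripts of other cells were found in the tumour cell sums. A list of 32 myeloid, vascular, fibroblast and glial genes summed to 504 and 78.3 CPM in brain, 8.73, 56.1 and 9.54 in liver, and 48.6, 4.05 and 4.68 in subcutaneous tumours, with both brain samples above the rest. Other lists were highest elsewhere, as 8 fibroblast markers in subcutaneous replicate 1 (32.6 CPM) and 5 erythroid markers in liver replicate 2 (852 CPM). Cells with 2 or more UMIs of the 32 genes were left out as an alternative chosen after seeing the data, with 8, 3 and 1 members passing. This kept 1371 of 2418 tumour cells in brain replicate 1 and 3876 of 4060 in brain replicate 2. Nearly all were kept in the other samples, such as 4056 of 4150 in subcutaneous replicate 1. The filter thus changed mainly the make-up of brain replicate 1. The planned filter, on markers of any host class, gave 4, 4 and 1. With the filter chosen after seeing the data, the Cdh1 difference of brain from liver was -1.59 (adjusted p = 0.000608) and that of Cdh22 -1.23 (adjusted p = 0.00174). Cdh5, the cadherin of endothelium, had a mean of 0.19 CPM in tumour cells, with its highest value, 0.83, in brain replicate 1.

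Genes that work with cadherins were taken from 6 lists, of which 58 genes were tested. There were 18 called in brain against liver (5 higher and 13 lower in brain), 8 in brain against subcutaneous (2 and 6) and 1 in liver against subcutaneous, lower in liver. These are 31.0%, 13.8% and 1.72% of the 58, beside the 21.8%, 15.1% and 2.83% of all genes. Without subcutaneous replicate 1 the counts were 25, 17 and 5, and without brain replicate 2 they were 3, 1 and 1. Counts over all genes also moved with these samples, as given above. Lower in brain than in liver were 4 of 13 tested genes of other cadherin superfamily branches (Fat1, Fat4, Clstn1 and Dsg2). Of 6 protease and processing genes 1 (Mmp14) was higher, and of 8 regulators of the clustered protocadherins 1 was higher (Wapl) and 1 lower (Dnmt3b). These names were added after their values were seen. Among 9 tested catenins, Ctnnd1 (p120 catenin) was lower in brain than in liver (log2 -0.56, adjusted p = 0.0439), and none other passed. Ctnnb1, beta-catenin, was at 95.9 to 128.5 CPM, Jup at 52.9 to 59.8, and Ctnna1 at 24.1 to 34.7. Ctnna3 had too few UMIs to be tested.

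Regulators of cadherin transcription changed in both directions, with 3 of 9 tested higher and 4 lower in brain than in liver. Grhl2, an activator of epithelial junction genes that raises Cdh1, was at 8.85 and 7.26 in brain, 23.8, 21.7 and 17.3 in liver and 11.6, 17.4 and 19.9 in subcutaneous tumours (CPM). It was lower in brain than in liver (log2 -1.502, adjusted p = 0.00447) and than in subcutaneous tumours (-1.03, adjusted p = 0.0254). Ovol1, which holds back mesenchymal genes, was also lower in brain in both comparisons (-1.20 and -1.13, adjusted p = 0.0186 and 0.0305), as was Twist1, a mesenchymal factor (-0.90 and -1.20, adjusted p = 0.00771 and 0.00439). Against subcutaneous tumours, only 1 partner gene stayed lower in brain without subcutaneous replicate 2, and likewise without replicate 3. The same held with only the 2 sites fitted, so at most 1 of these 3 calls was kept in each case. Without brain replicate 2, none of the 13 partner genes lower in brain than in liver passed, these 3 included, and 1 of the 6 lower in brain than in subcutaneous tumours did. The repressors Zeb1 and Zeb2 were higher in brain than in liver (1.17 and 1.505, adjusted p = 0.00818 and 0.00423), and Snai2 likewise (1.58, adjusted p = 0.0138). These 3 did not pass in brain against subcutaneous tumours (adjusted p = 0.27, 0.81 and 0.488) and were named after their values were seen. Their site means were 25.2, 23.2 and 2.55 CPM in brain, 10.4, 7.59 and 0.80 in liver, and 19.2, 21.7 and 1.98 in subcutaneous tumours. Liver was thus lowest for all 3. Zeb2 was the 1 partner gene called in liver against subcutaneous tumours (log2 -1.40, adjusted p = 0.0201), a call lost without liver replicate 1 or 2. Outside this list, Clstn1, a calsyntenin, was lower in brain in both comparisons (-0.57 and -0.40), and Wapl, a cohesin release factor, was higher (0.53 and 0.42).

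Cells under the 0.2% share were grouped by clusters named from marker genes. Of these, 312 lay in 2 tumour-like clusters. They held Cdh2 at 66.8 CPM, Pcdh10 at 53.5 and Cdh1 at 15.1, and were kept out of the host classes. The levels of host classes rest on few molecules, and the intervals given are exact Poisson intervals at 95% that cover counting error only. In macrophage-like cells (331 cells, 2237402 UMIs) no member had more than 4 UMIs: Cdh2 was at 1.79 CPM (0.487 to 4.58), beside 75.9 to 89.3 in tumour cells. Free RNA from tumour cells can give such a level, so it was taken as background. A Cdh2 UMI was found in 1.21% of macrophage-like cells. Of the 2 clusters in this class, 1 (92 cells, all from brain) had all 7 microglia and all 9 macrophage markers detected.

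Endothelial-like cells (81) held Cdh5, VE-cadherin, the cadherin of endothelial junctions, at 343 CPM (282 to 414, 109 UMIs in 39 cells). They also held Cdh13 at 107 (74.1 to 149.6, 34 UMIs), Pcdh1 at 66.1 (21 UMIs) and Pcdh19 at 50.4 (16 UMIs). Per sample, Cdh5 was at 279 in brain replicate 1 (54 cells) and 269 in brain replicate 2 (18 cells). Only 9 endothelial-like cells came from the other tumours. The pooled 343 CPM lay above both brain samples, so these 9 cells together held Cdh5 at a higher level and raised it. The next highest Cdh5 lay in an unnamed cluster of 33 liver cells led by Clec4f, Cd5l and Marco, at 206 (106 to 359, 12 UMIs in 10 cells), and in 9 cells led by Ptcra and Ccr9, at 197 (8 UMIs).

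Pericyte-like cells (16) held Pcdh18 at 109 CPM (12 UMIs), Cdh11 and Cdh2 each at 91.1 (10 UMIs) and Cdh13 at 82.01 (9 UMIs). Fibroblast-like cells (85, of which 70 came from subcutaneous replicate 1) held Pcdh18 at 31.99 (10 UMIs) and Pcdh19 at 28.8 (9 UMIs). They also held Cdh5 and Pcdh20 at 15.99 each (5 UMIs), and Pcdh20 had no UMI in the tumour cells.

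Oligodendrocyte-like cells (26, all from brain) held Pcdh9 at 272 CPM (195 to 371, 40 UMIs in 22 cells), at 268 in replicate 1 and 277 in replicate 2. In tumour cells Pcdh9 had values of 1.03 to 1.77. Next came Pcdh10 at 40.9 (6 UMIs) and Cdh10 at 34.05 (5 UMIs). Oligodendrocyte precursor-like cells (10) held Pcdh15 at 409 (204 to 733, 11 UMIs), Pcdh10 at 261 (105 to 537, 7 UMIs) and Pcdh9, Pcdh17 and Pcdhb9 at 223 each (6 UMIs). Astrocyte-like cells (32) held Cdh2 at 104 (10 UMIs), Pcdh9 at 83.5 (8 UMIs) and Pcdh17 at 62.6 (6 UMIs).

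The named myeloid classes held few members. Unnamed clusters of 308 and 98 cells, each with all 9 macrophage markers detected, were not in these classes and their levels are not given. The cluster of 308 cells also had 6 microglia markers detected. Microglia-like cells (286) held Cdh23 at 11.1 (14 UMIs, 6.09 to 18.7) and Pcdhb22 at 10.3 (13 UMIs, 5.51 to 17.7), each above the 1.34 CPM of either gene in macrophage-like cells (0.277 to 3.92). The macrophage-like class includes the brain cluster with all microglia markers, so these values do not set microglia cleanly against macrophages. A cluster of 179 cells led by Cd209a and Mgl2, left unnamed with 5 of 9 macrophage markers detected, held Cdh1 at 42.8 CPM (32.7 to 55.2, 60 UMIs in 36 cells). A Cdh1 UMI was found in 20.1% of these cells, at a median depth of 7683 UMIs, against 0.906% of macrophage-like cells. In microglia-like cells the next member, Cdh2, had 3 UMIs. Dendritic-like cells held 4 UMIs of Cdh2 (19.2 CPM) and neutrophil-like cells 2 of Pcdh10 (74.3 CPM), and no other member had more than 1 UMI in either. In the cluster led by Cd209a, Cdh1 was at 31.5 in brain replicate 1 (19.97 to 47.3) and 98.8 in brain replicate 2 (68.0 to 138.7). It was at 36.0 in liver replicate 2 (7.42 to 105.2, 14 cells). Subcutaneous replicate 1 gave 28 cells of this cluster. All 273 cells of that sample under the tumour cell share held 3 Cdh1 UMIs. At most 3 of the 60 Cdh1 UMIs of the cluster thus came from subcutaneous replicate 1, and the pooled level does not describe every sample. The cells of this cluster held 6 UMIs of Cdh17.

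**Figure D5:**
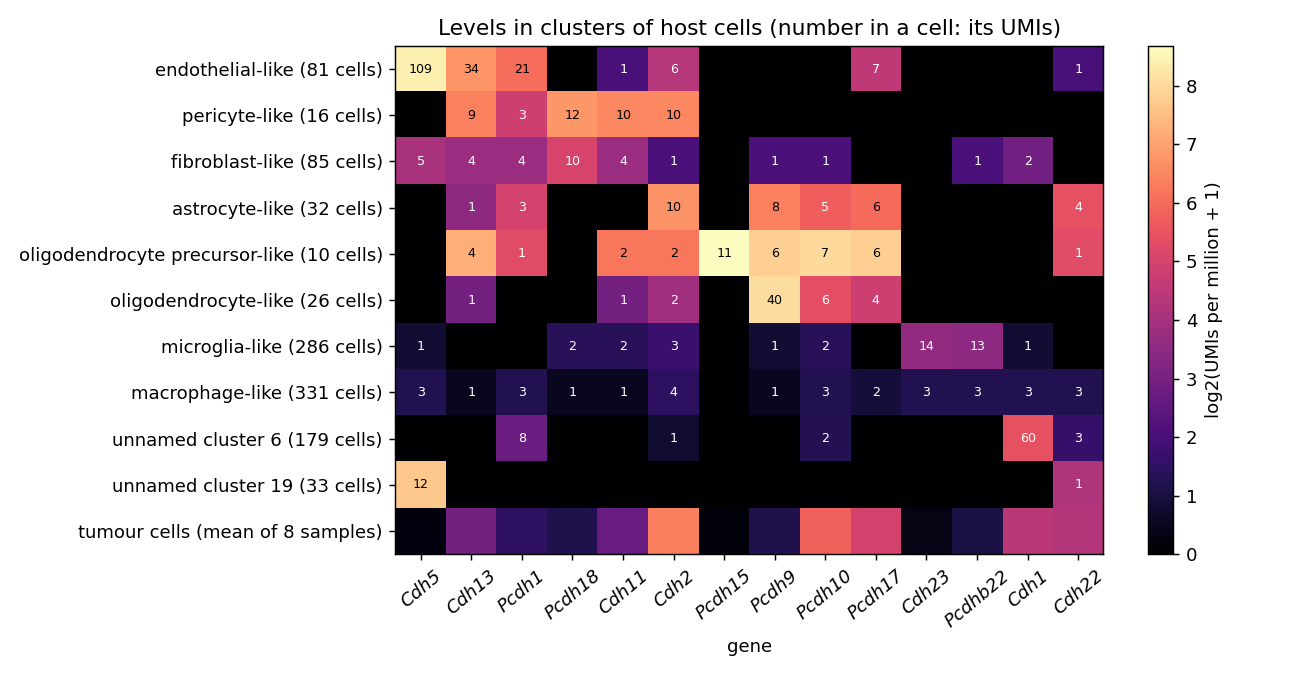
Levels of 14 members in clusters of host cells and, in the bottom row, in tumour cells, as log2(CPM + 1). The number in a cell counts its UMIs. Cdh5 is brightest in endothelial-like cells (109 UMIs), Pcdh9 in oligodendrocyte-like cells (40), and Cdh1 stands out in unnamed cluster 6 (60).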

How the data were processed

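Tumour and host cells of 8 allografts were measured. The authors deposited, per sample, a matrix of whole-number UMI counts with gene identifiers and barcodes, in the format of version 3.0.0 per the file headers. Cell Ranger, STAR and mm10 are named per the submitters' processing notes, and their versions, the annotation and the barcode filter are not given in the sources used here. The cell filter asked for 500 detected genes or more and a mitochondrial share of at most 10%, which 36797 of 38460 cells met. Tumour cell counts were summed per sample and tested with edgeR 4.0.16 (R 4.3.3; TMM scaling, filterByExpr, robust quasi-likelihood fit, 1 model of 3 site means over 8 samples, 5 residual degrees of freedom), with Benjamini-Hochberg adjustment over 13931 genes and a threshold of 0.05. The biological coefficient of variation was 17.9%. The test was run on simulated counts with the same dispersion for all genes and no outlying sample. That run cannot vouch for calls that depend on single samples. Intervals of fold changes use 5 degrees of freedom.

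Named members were those past the threshold with a mean of at least 10 CPM (UMIs per 1000000) (all values and tests) or at 1 to 10 (values and fold changes), and those of at least 10 past no threshold (levels). Of named host classes, the 3 members with the highest level were taken, with ties. Members given beyond these, and those of unnamed host clusters, were picked after their values were seen, and classes in which members had 4 UMIs or fewer are given by their counts. Of partner genes, catenins and genes past the threshold in both brain comparisons with the same sign and at least 10 CPM (UMIs per 1000000) were taken; others named were picked after their values were seen. Of the 6 partner lists, 1 is not reported by itself here. The members and gene lists were chosen with earlier results of these data known. Cells were clustered with scanpy 1.11.5 (2000 variable genes, 30 components, 15 neighbours, Leiden resolution 1) after the 92 members were taken out. A cluster was named where at least 3 markers of a type were detected in at least 20% of its cells and its 10 leading genes held no more markers of another type. Clusters whose median UMI count was under 1 part in 3 of their samples' with no such marker among the 10 leading genes stayed unnamed. Doublets were not removed. Alternatives were another scaling, no filter on low counts, DESeq2 1.42.0, a replicate block, 2 sites only, other tumour cell shares, other cell filters, cells without host transcripts, and each sample left out. Promoter windows are from RefSeq (GRCm38.p6), which gave 22 of 92 members.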

Additional observations from a re-analysis of the deposited data

How the results depend on the processing

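No called fold change of the 12 named members changed sign under any alternative. The 12 members had 36 fold changes in the 3 comparisons, of which 6, 3 and 1 were called and could lose the call. Over all alternatives these gave 642 fold changes, most of them not called to begin with. Of the 642, 576 kept their side of the threshold, 49 lost the call (33 of them with a sample left out) and 17 gained it (9). Leaving out 1 sample in turn gave 2 to 9 members called in brain against liver, 0 to 9 in brain against subcutaneous and 0 to 2 in liver against subcutaneous, and 3 to 25, 1 to 17 and 0 to 5 partner genes. Where this left 1 brain sample, it was assumed to vary like the other groups. The highest values came without subcutaneous replicate 1 (for members in liver against subcutaneous also without liver replicate 3), and the lowest in both brain comparisons without brain replicate 2 (for partner genes in brain against subcutaneous also without brain replicate 1). Counts over all genes were likewise highest without subcutaneous replicate 1. Fitting only the sites compared gave 1 member and 2 partner genes in brain against subcutaneous. DESeq2 gave 3 members and 5 partner genes in liver against subcutaneous. The replicate numbers did not pair the samples: same-numbered liver and subcutaneous samples had correlations of 0.29, -0.11 and 0.35, and liver replicate 2 did not correlate best with its own number. With the replicate block, 4, 3 and 0 members and 18, 4 and 0 partner genes were called. Leaving out tumour cells with 2 or more UMIs of any host marker kept 137 to 924 cells per sample. It gave 4, 4 and 1 members and 4, 2 and 2 partner genes in the 3 comparisons. Of these members, 3, 2 and 1 were among those called with all tumour cells. Over all genes 966, 672 and 250 of 10290 passed. The cause of these changes was not tested. Depth limits the host values, which rest on 1 to 109 UMIs, and the 62 members under 1 CPM.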

Other observations

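Among the cells under the 0.2% share, 312 lay in clusters with tumour markers. They held Cdh2 at 66.8 CPM (106 UMIs) and Pcdh10 at 53.5 (85 UMIs), beside 75.9 to 89.3 and 42.8 to 66.0 in the tumour cells of the 8 samples. In the 11 hepatocyte-like cells no UMI of any member was found. Dendritic-like cells (38) held 4 UMIs of Cdh2, and neutrophil-like cells (19) held 2 UMIs of Pcdh10.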
